A study of Mus musculus with 6 samples.

Results

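Collagen genes were followed in primary mouse hepatic stellate cells a day after a short pulse of forskolin. The members are the rows of the authors' gene count table whose symbol has the form Col, a number, a and a number, which gave 44 of 24940 genes. Each encodes 1 alpha chain of a collagen. They were sorted into structural classes, with 11 fibrillar chains, 6 chains of basement membrane collagen, 3 network chains, 9 FACIT chains, 6 beaded filament chains and 9 chains of smaller classes.

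All libraries came from wild-type stellate cells of female mice of the strain that the labels give as C57BL/6JBomTac and C57BL6/JBomTac. The labels give no age for the mice. Forskolin, which switches on the enzyme adenylyl cyclase and thereby increases cyclic AMP, was given at 5 µM on day 2 after isolation. Vehicle cells received dimethyl sulfoxide at the same time. The medium of both groups was replaced after 3 h, and RNA was taken 21 h later, at 24 h. Polyadenylated RNA was sequenced in 3 libraries per group, named A, B and C. No label says whether the libraries of a group came from separate mice or cultures, so p-values measure only how far these libraries scatter, and that scatter may be technical.

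Collagens are trimers of alpha chains that wind into a triple helix, either of identical chains or of different chains in a fixed ratio. Fibrillar collagens (types I, II, III, V, XI, XXIV and XXVII) form the fibres of connective tissue, and type IV collagen forms the sheet of basement membranes. Network collagens such as type VIII form hexagonal lattices. FACIT collagens (fibril-associated collagens with interrupted triple helices) sit on the surface of fibrils, and type VI collagen forms beaded filaments between cells and matrix. In injured liver, stellate cells become activated and are a main source of the fibrillar collagen of scar tissue. Plating on plastic also activates them.

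Of the 44 chains, 25 passed the filter on low counts and were tested, and 24 of these reached the filter's cutoff in every library of both groups. Forskolin libraries had less RNA of 12 of the 25 tested chains and more of 3 (edgeR's quasi-likelihood test, adjusted p under 0.05 over all genes tested), and 10 chains did not pass. Over all 13357 genes tested, 49.9% passed, 25.1% lower and 24.8% higher. A fall of at least 2-fold was called for 3 chains (3.71% of all genes tested) and a rise of at least 2-fold for 2 chains (2.90%). The median log2 fold change was -0.12 over the tested chains and 0.01 over all tested genes. Libraries of the groups did not overlap for 14 tested chains, 10 lower and 4 higher. Over all tested genes 57.3% did not overlap, 28.4% with forskolin lower. Among chains with a mean of at least 10 CPM (the usual depth-scaled count, here on TMM-scaled library sizes), 12 of 18 were lower and 1 was higher, and 55.0% of all genes at that level passed in either direction. In RNA from whole cultures, fewer cells that make a chain and less RNA per cell cannot be told apart.

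**Figure D1:**
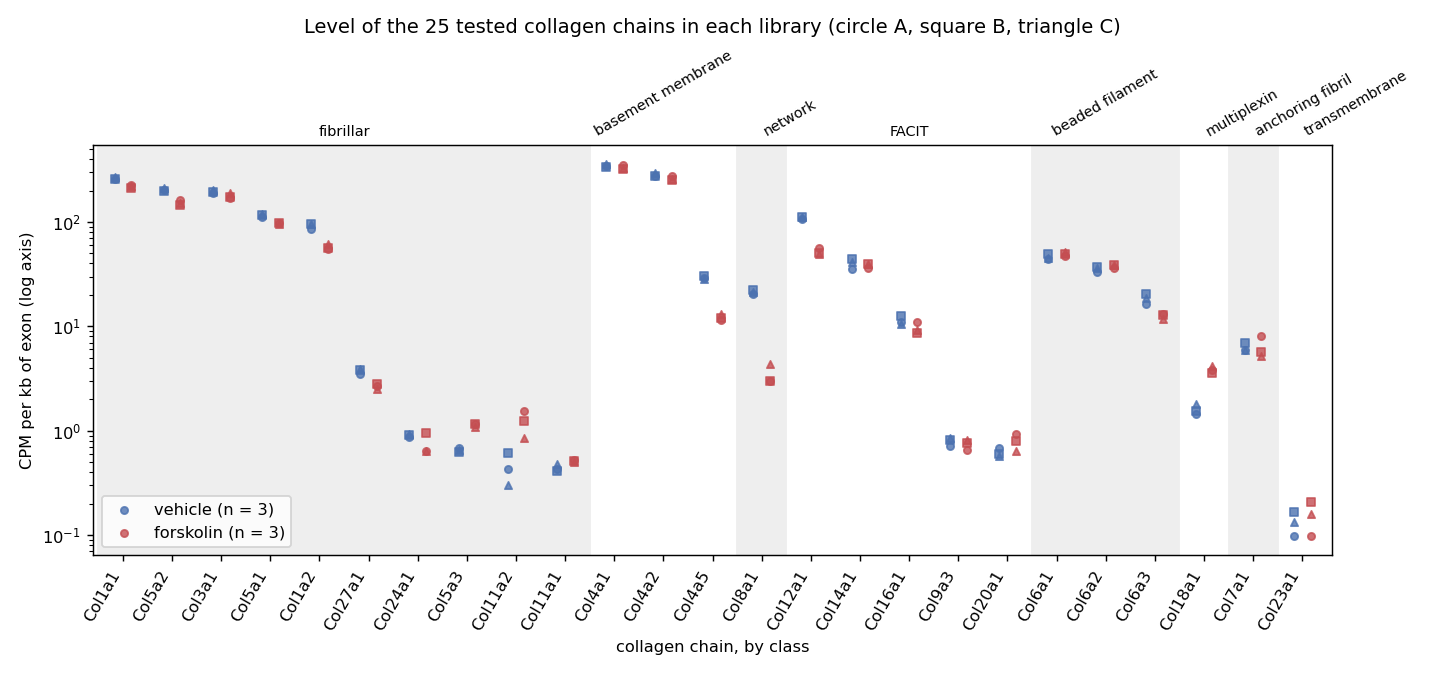
Level of each tested collagen chain in CPM per kb of exon, on a log axis, in the vehicle libraries (blue) and forskolin libraries (red), ordered by class and by vehicle level. Col4a1 was the highest chain in both groups, and the separation is widest for Col8a1.

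The forskolin libraries held between 10890193 and 12954310 counts each, and those of vehicle held more, between 13001358 and 15090262.5. Library size therefore went with treatment, and a fit with it as a covariate cannot fully separate it from treatment. All 15 stellate cell markers listed were counted well enough to be tested, and 8 were called higher and 4 lower (median log2 fold change 0.16, summed level 4161 to 4263 CPM with forskolin and 3799 to 4007 CPM with vehicle). Beside this and the other marker lists, 25.1% of all genes tested were lower and 24.8% higher. Lrat, which encodes the retinol-esterifying enzyme, was at 51.9 CPM with forskolin and 55.0 CPM with vehicle, and Reln at 927 and 831 CPM. The growth factor gene Hgf (401 and 198 CPM) and the cytoglobin gene Cygb (82.2 and 54.0 CPM) were among the 8 that were higher with forskolin, and desmin (Des, 182 and 323 CPM) and the receptor gene Pdgfrb (282 and 381 CPM) among the 4 that were lower. Markers of other liver cells also differed between the groups, and their part in the collagen results was not tested. Sinusoidal endothelial markers had 5 of 9 tested genes lower and 1 higher, and their summed level was 777 to 836 CPM with forskolin and 974 to 1022 CPM with vehicle. Most of the endothelial sum was Eng (699 and 750 CPM) and Flt4 (79.7 and 195 CPM). The defining endothelial gene Stab2 was at 2.53 and 0.955 CPM. Smooth muscle markers had 8 of 9 tested genes lower and 0 higher, with sums of 1112 to 1302 and 1355 to 1412 CPM, Myh11 being at 42.0 and 65.1 CPM. Portal fibroblast and mesothelial markers had 2 of 7 tested genes higher and 2 lower (sums of 525 to 553 and 605 to 620 CPM). Most of this sum was Fbln2 (493 and 581 CPM). Eln was at 0.868 and 1.29 CPM and Msln at 9.5 and 16 counts over 3 libraries. The 2 that were higher were Thy1 (0.650 to 4.95 CPM) and Cd34 (3.86 to 19.6 CPM). Of the cholangiocyte markers 2 of 4 were higher and 2 lower (sums of 392 to 428 and 138 to 153 CPM, most of it Spp1), with Krt19 at 35.1 and 71.3 CPM. Macrophage markers had 4 of 14 genes tested, 2 higher and 1 lower (sums of 50.7 to 56.2 and 46.4 to 47.6 CPM), and Adgre1 had 2 and 5.5 counts over 3 libraries. Hepatocyte markers had 2 of 12 genes tested and 1 higher (sums of 217 to 238 and 175 to 188 CPM). Nearly all of this sum was Trf (220 and 176 CPM), and albumin (Alb) had 1 and 0 counts.

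Among the fibrillar chains, 6 of 10 tested members fell, 2 rose and 2 did not pass, with a median log2 fold change of -0.26. Beside this and the other classes, 25.1% of all genes tested were lower and 24.8% higher. The fibrillar chains that fell were those with the highest vehicle level per kb, though Col27a1 (3.73 CPM per kb) lay far below Col1a2 (92.3) and the rest. Col1a1 (mm10 chromosome 11, 94936224 to 94953042) encodes the alpha 1 chain of type I collagen, the main protein of scar fibres. It was at 1315, 1239 and 1301 CPM in forskolin libraries A, B and C and at 1519, 1515 and 1585 CPM in vehicle libraries A, B and C. The groups did not overlap, and the log2 fold change of Col1a1 was -0.26 (SE 0.0430, edgeR's adjusted p = 6.02e-05). Its partner Col1a2 (chromosome 6, 4505618 to 4541543) encodes the alpha 2 chain of the same trimer. Col1a2 was at 285, 292 and 316 CPM with forskolin and at 438, 498 and 496 CPM with vehicle. Every forskolin library lay below every vehicle library, and Col1a2 fell by 0.68 in log2 units (SE 0.0527, adjusted p = 4.60e-09), which left 62.3% of the vehicle level.

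Type V collagen starts and thins type I fibrils. Col5a1 (chromosome 2, 27886425 to 28039510) was at 812, 816 and 804 CPM with forskolin and 926, 981 and 992 CPM with vehicle, and fell by 0.25 (adjusted p = 5.98e-05). Col5a2 (chromosome 1, 45374331 to 45503282) was at 1073, 946 and 994 CPM and at 1331, 1306 and 1374 CPM, and fell by 0.41 (adjusted p = 1.00e-06). Neither chain's groups overlapped. The minor chain Col5a3 (chromosome 9, 20770057 to 20815067) went the other way. Its libraries were at 7.06, 7.06 and 6.53 CPM with forskolin and at 4.10, 3.78 and 3.98 CPM with vehicle, a rise of 1.76-fold (log2 fold change 0.81, SE 0.164, adjusted p = 0.000455). Per kb of exon Col5a3 remained far below its partners, at 1.14 ± 0.0506 against 97.3 ± 0.728 for Col5a1 with forskolin (SD, n = 3).

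Col3a1 (chromosome 1, 45311538 to 45349706) encodes the single chain of type III collagen, which forms fine fibres together with type I. It was at 927, 962 and 1052 CPM with forskolin and 1040, 1066 and 1106 CPM with vehicle, so forskolin C lay above vehicle A. Col3a1 fell by 0.13 in log2 units (adjusted p = 0.0365), and this call was lost without forskolin A or B or without any 1 of the vehicle libraries (adjusted p 0.0520 to 0.152). Library size as the only scaling (0.122) or as a covariate (0.196) also ended it. Col27a1 (chromosome 4, 63215412 to 63334990), a fibrillar chain best known from cartilage, was at 20.1, 21.2 and 19.0 CPM against 26.4, 28.7 and 29.5 CPM and fell by 0.49 (adjusted p = 0.000127). Its groups did not overlap.

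Type XI collagen is a close relative of type V that is typical of cartilage, and its chains can join type V trimers. Col11a2 (chromosome 17, 34039138 to 34066684) had the largest rise among the tested chains. It was at 10.02, 8.05 and 5.55 CPM in forskolin A, B and C and at 2.77, 3.99 and 1.97 CPM in vehicle A, B and C. The groups did not overlap, though the libraries within each scattered widely, with means of 7.87 ± 2.24 and 2.91 ± 1.02 CPM (SD, n = 3). The log2 fold change was 1.40 (SE 0.242, adjusted p = 0.000105), with a range of 1.19 to 1.71 over the alternatives. Col11a1 was at 3.93 ± 0.0734 and 3.37 ± 0.295 CPM, and although its libraries did not overlap the difference did not pass (fold 1.17, 95% interval 0.882 to 1.55, adjusted p = 0.349). Col24a1 was at 5.27 ± 1.26 and 6.39 ± 0.263 CPM (fold 0.831, 95% interval 0.641 to 1.08, adjusted p = 0.228), and without forskolin B, its highest library, it was called lower (adjusted p = 0.0401). Col2a1, the chain of cartilage type II collagen, was not tested, with 6 and 13 counts over 3 libraries.

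The promoter window of Col11a2, taken from the RefSeq table of GRCm38.p6 (mm10), is shown because this chain had the largest rise and its window held no annotated exon. It is the 250 bases before the transcript start, chr17:34038888-34039137, plus strand, 5′ to 3′, with matches to the 7 motifs searched in capitals.
Col11a2: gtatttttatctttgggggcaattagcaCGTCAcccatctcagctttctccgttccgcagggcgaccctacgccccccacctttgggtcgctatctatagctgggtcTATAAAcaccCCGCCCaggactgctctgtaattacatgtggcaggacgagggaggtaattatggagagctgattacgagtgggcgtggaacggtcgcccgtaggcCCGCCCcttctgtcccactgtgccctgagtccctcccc
The capitals are a TGACG match (read on the other strand) that begins 222 bases before the start, a TATAAA match at 143 bases and GGGCGG matches at 133 and 38 bases.

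Of the basement membrane chains, 3 of 6 were tested and 2 of them fell. Col4a1 (chromosome 8, 11198423 to 11312826) and Col4a2 (chromosome 8, 11312805 to 11449287) form the common trimer of type IV collagen. Col4a1 was at 2298, 2106 and 2170 CPM with forskolin and 2259, 2204 and 2376 CPM with vehicle. The groups overlapped, and the fold was 0.961 with a 95% interval of 0.897 to 1.03 (adjusted p = 0.335). Col4a1 was called lower with library size as a covariate (log2 fold change -0.17, adjusted p = 0.00310). Col4a2 was at 1754, 1610 and 1641 CPM against 1777, 1771 and 1874 CPM. The groups did not overlap, but forskolin A lay just below vehicle B. Col4a2 fell by 0.12 in log2 units (adjusted p = 0.0436). In 6 of 14 alternatives it did not pass, including without forskolin B or C and without vehicle A or C (adjusted p 0.0805 to 0.179). Library size as the only scaling (0.120) and scaling without rows of over 1 count per base (0.0632) also ended it.

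Col4a5 (chromosome X, 141475419 to 141689235) encodes a chain of the rarer type IV trimers, known from kidney basement membrane and mutated in Alport syndrome. It was at 74.3, 78.0 and 85.4 CPM with forskolin and 189, 193 and 182 CPM with vehicle. The groups lay far apart, and Col4a5 fell by 1.25 (SE 0.0521, adjusted p = 9.03e-13), to 42.1% of the vehicle level. Of the tested genes, 340 had a lower log2 fold change. Its neighbour Col4a6 (chromosome X, 141165403 to 141474076), which lies head to head with it, had 1, 2.5 and 1 counts with forskolin and 18, 12 and 7 with vehicle. Col4a6 did not pass the filter on low counts. The depth-corrected ratio of its pooled counts, vehicle over forskolin, was 8.17 (95% interval 2.94 to 31.6, exact, counting error only). Pooled counts were rounded to whole numbers for such ratios, and the 4.5 forskolin counts of Col4a6 were rounded down, which raised its ratio. Without the filter the adjusted p of Col4a6 was 0.000453. Col4a3 had 13 and 29.5 counts over 3 libraries (ratio 2.04, 95% interval 1.03 to 4.26) and Col4a4 had 5 and 19 (ratio 3.36, 95% interval 1.21 to 11.5), and neither passed without the filter (adjusted p = 0.191 and 0.0529). Sinusoidal endothelial cells also make type IV collagen, and their tested markers did not move together. Flt4 (195 to 79.7 CPM), Flt1, Kdr, Lyve1 and Tek were lower with forskolin and Stab2 was higher. Eng (750 and 699 CPM), Tie1 and Stab1 did not pass, and Pecam1 (14.5 counts with forskolin and 16 with vehicle) and Cdh5 (15.5 and 16) were below the filter. The part of these cells in the type IV values was not tested.

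The window before the start of Col4a6 is shown because it lies in the 1342 bases between these divergently transcribed chains, both of which had lower counts with forskolin. It is chrX:141474077-141474326, minus strand, from RefSeq on GRCm38.p6, 5′ to 3′, with motif matches in capitals.
Col4a6: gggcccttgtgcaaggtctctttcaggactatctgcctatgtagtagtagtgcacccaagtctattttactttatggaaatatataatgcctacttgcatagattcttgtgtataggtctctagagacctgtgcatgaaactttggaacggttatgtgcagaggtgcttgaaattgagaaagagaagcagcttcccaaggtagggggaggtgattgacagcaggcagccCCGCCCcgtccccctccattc
The only match is GGGCGG, read on the other strand, 21 bases before the start.

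Network chains were represented by Col8a1 alone among the tested genes. Col8a1 (chromosome 16, 57624256 to 57754737) encodes the alpha 1 chain of type VIII collagen, a short-chain collagen of vessel walls and of remodelling tissue. It was at 15.4, 15.4 and 22.1 CPM in forskolin A, B and C and at 105, 114 and 108 CPM in vehicle A, B and C. The highest forskolin library was far below the lowest vehicle library. Col8a1 fell by 2.63 (SE 0.0922, adjusted p = 9.23e-14), a 6.17-fold difference, and 48 of 13357 tested genes had a lower log2 fold change. Its partner Col8a2 had 13.5 and 15.5 counts over 3 libraries, a depth-corrected ratio of vehicle over forskolin of 1.01 (95% interval 0.462 to 2.23). Col10a1, the chain of growth plate cartilage, had 8.5 and 18 counts.

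The window before the Col8a1 start is shown because this was the chain that fell most. It is chr16:57754738-57754987, minus strand, from RefSeq on GRCm38.p6, 5′ to 3′, with motif matches in capitals.
Col8a1: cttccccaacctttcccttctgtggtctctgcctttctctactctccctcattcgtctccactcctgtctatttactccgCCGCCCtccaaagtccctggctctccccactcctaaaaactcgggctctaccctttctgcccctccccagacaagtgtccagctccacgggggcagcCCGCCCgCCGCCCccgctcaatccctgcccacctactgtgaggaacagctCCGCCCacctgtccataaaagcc
It held 4 matches to GGGCGG on the other strand, 170, 73, 66 and 23 bases before the start, and none to the cyclic AMP response element TGACGTCA or its part TGACG.

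The 7 motifs were searched on both strands of the 250 bases before the start, and TGACG is contained in TGACGTCA. Of the 44 chains 35 were in the RefSeq promoter table, among them 20 of the 25 tested, 9 that fell and the 3 that rose. The full element TGACGTCA was in 0 of the 20 and in 1.55% of all 32851 promoters. TGACG was in 4 of the 20 (17.8% of all promoters), in 1 that fell and 1 that rose. The AP-1 motif TGANTCA was in 1 of the 20 (6.75%) and the TEAD motif CATTCC in 3 (12.6%). CCAAT was in 9 of the 20 (33.8%), TATAAA in 2 (12.4%) and GGGCGG in 14 (32.7%). A match is a description of letters in this window.

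FACIT chains had 2 of 5 tested members lower and 0 higher. Col12a1 (chromosome 9, 79598987 to 79718722) encodes type XII collagen, which coats type I fibrils in tissue under tension. It was at 651, 589 and 572 CPM with forskolin and at 1240, 1292 and 1285 CPM with vehicle. The groups were far apart, and Col12a1 fell by 1.08 (SE 0.0486, adjusted p = 2.59e-12), to 47.5% of the vehicle level. Its relative Col14a1 (chromosome 15, 55307750 to 55520803), which regulates the early growth of fibrils, was at 232, 254 and 254 CPM with forskolin and 227, 284 and 265 CPM with vehicle. These groups overlapped, and the fold was 0.953 with a 95% interval of 0.871 to 1.04 (adjusted p = 0.379). Without vehicle A, its lowest library, Col14a1 was called lower (adjusted p = 0.0343).

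Col16a1 (chromosome 4, 130047840 to 130099277), a minor FACIT chain, was at 56.7, 44.6 and 47.1 CPM with forskolin and 56.6, 64.3 and 54.6 CPM with vehicle. Forskolin A lay above 2 of the vehicle libraries. Col16a1 fell by 0.25 in log2 units (adjusted p = 0.0172). The call was lost when forskolin B (adjusted p = 0.114) or vehicle B (0.143) was left out and when library size was a covariate (0.111). Col9a3 was at 2.09 and 2.24 CPM (adjusted p = 0.765) and Col20a1 at 3.27 and 2.57 CPM (adjusted p = 0.235). The other FACIT chains, Col9a1, Col9a2, Col19a1 and Col22a1, had at most 6 counts in any library.

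**Figure D2:**
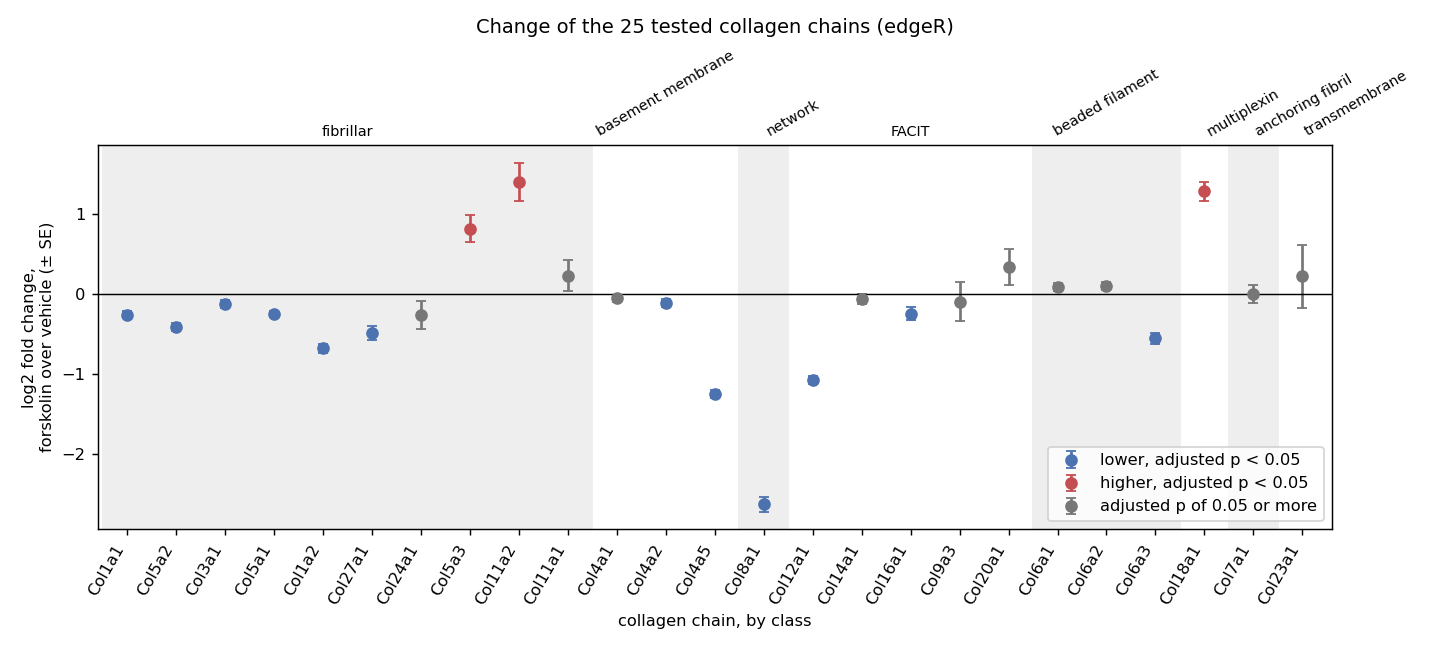
Log2 fold change, forskolin over vehicle, of each tested collagen chain with its standard error, by class and in order of vehicle level (blue lower, red higher, grey not past the threshold). Col8a1, Col4a5 and Col12a1 lie below -1, and Col11a2 and Col18a1 above 1.

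Type VI collagen, which links cells to the surrounding matrix, is a trimer of alpha 1, alpha 2 and a larger chain, usually alpha 3. Col6a1 (chromosome 10, 76708792 to 76726044) was at 185, 194 and 203 CPM with forskolin and at 174, 196 and 177 CPM with vehicle. Col6a2 (chromosome 10, 76595756 to 76623404) was at 133, 143 and 143 CPM and at 123, 137 and 133 CPM. Both overlapped between the groups and neither passed, with folds of 1.06 (95% interval 0.988 to 1.15, adjusted p = 0.153) and 1.07 (95% interval 0.991 to 1.15, adjusted p = 0.135). Both were called higher with library size as the only scaling (adjusted p = 0.0396 and 0.0337) and without forskolin A (0.0412 and 0.0397). With the library size covariate (0.0316) and when vehicle B was left out (0.0328), Col6a1 was also called higher. Col6a3 (chromosome 1, 90766860 to 90843971) differed from them. It was at 141, 137 and 127 CPM with forskolin and 176, 219 and 202 CPM with vehicle, with no overlap, and fell by 0.56 (SE 0.0639, adjusted p = 8.84e-07). The chains that can replace alpha 3 were nearly uncounted, Col6a4 with 0.5 and 5 counts, Col6a5 with 0 and 8 and Col6a6 with 0.5 and 0.5 over 3 libraries.

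Of the smaller classes, only Col18a1 passed. Col18a1 (chromosome 10, 77052179 to 77166530) encodes a multiplexin of basement membrane zones whose C-terminal fragment is endostatin. It was at 19.2, 18.0 and 20.7 CPM with forskolin and 7.31, 7.67 and 8.94 CPM with vehicle. Every forskolin library lay well above every vehicle library, and the rise was 2.42-fold (log2 fold change 1.28, SE 0.120, adjusted p = 6.52e-08). The table counts 1 transcript of this gene, which has a long and a short form from separate promoters, and does not tell the forms apart. Col7a1 (chromosome 9, 108953745 to 108984875), the chain of anchoring fibrils, was at 72.8, 51.9 and 47.1 CPM against 54.0, 63.2 and 53.3 CPM (fold 1.00, 95% interval 0.849 to 1.18, adjusted p = 0.996). Forskolin A was the highest of these libraries, and without it Col7a1 was called lower (log2 fold change -0.20, adjusted p = 0.0293). The transmembrane chain Col23a1 was at 0.874 and 0.746 CPM (adjusted p = 0.680).

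The 19 untested chains had at most 18 counts in any library. Of these, Col6a4, Col6a5, Col4a4, Col4a6, Col17a1 and Col22a1 had a higher CPM in every vehicle library than in any forskolin library. These were 6 of the 18 untested chains with any count, against 7.19% of all such untested genes, and 6 of the 13 with at least 5 counts over the 6 libraries, against 12.6%. Without the filter on low counts, Col4a6 alone of the untested chains passed. Col15a1, a multiplexin, had 12.5 and 19.5 counts and Col13a1, a transmembrane chain, 11 and 2 counts, 9 of the 11 in forskolin A. The transmembrane chains Col17a1 and Col25a1 had 9 and 27.5 counts and 12 and 19 counts over 3 libraries, and Col28a1 had 0.5 and 3. Among FACIT chains, Col22a1 had 4.5 and 17 counts, and Col9a1, Col9a2 and Col19a1 had 1 and 1.5, 1 and 2, and 0 and 1. Col26a1 was listed at 0 in all 6 libraries, where 3 counts would be 0.0387 CPM.

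Summed over all 44 chains, collagen took 1.02%, 0.976% and 0.998% of the counts of forskolin libraries A, B and C and 1.15%, 1.18% and 1.20% of those of vehicle libraries A, B and C. Per kb of exon, which makes levels of chains comparable, the summed level was 1532 ± 39.7 CPM per kb with forskolin and 1826 ± 48.8 with vehicle (SD, n = 3), a ratio of 0.839. Fibrillar chains went from 875 ± 24.97 to 711 ± 18.5 CPM per kb and FACIT chains from 163 ± 7.53 to 102 ± 2.91. In both classes every forskolin library was below every vehicle library, as in the basement membrane and network classes and in the sum over all 44 chains. Network chains went from 21.6 ± 0.951 to 3.62 ± 0.711 CPM per kb, nearly all of it Col8a1. Basement membrane chains were at 658 ± 21.3 and 606 ± 26.2 CPM per kb, with forskolin libraries of 635, 584 and 600 and vehicle libraries of 651, 642 and 682. Beaded filament chains were at 100.2 ± 6.76 and 99.6 ± 3.10 CPM per kb and overlapped. Sums over members were not tested.

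**Figure D3:**
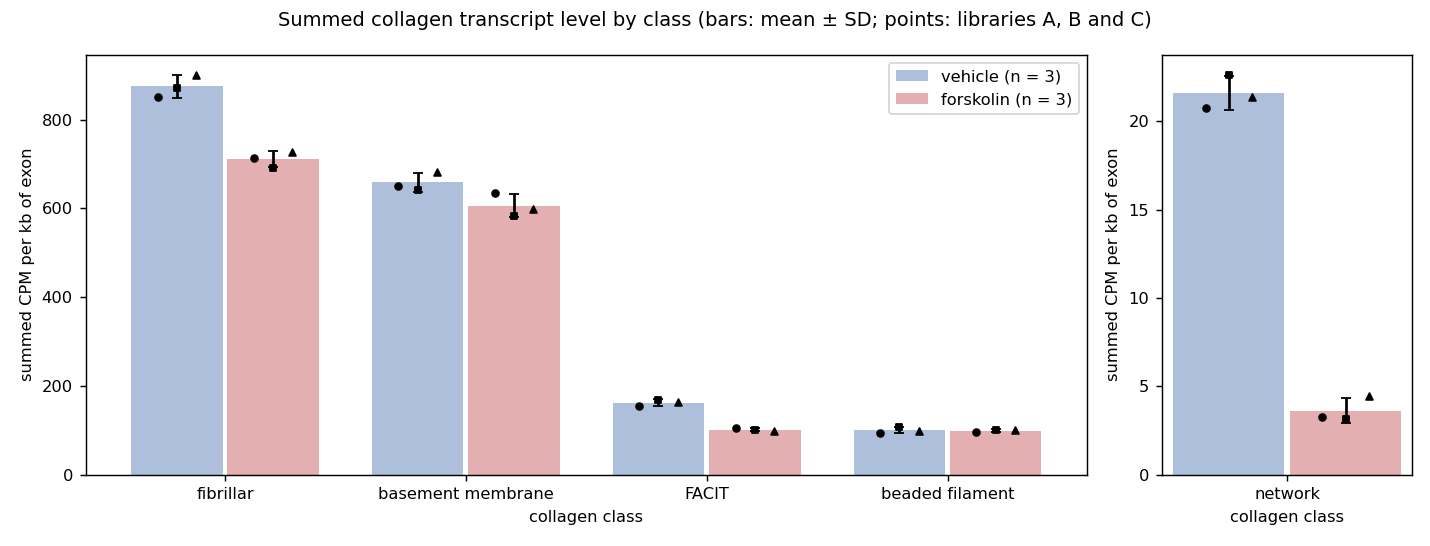
Summed level of each collagen class in CPM per kb of exon, with bars for the mean ± SD over 3 libraries and points for the libraries. The network class is drawn on its own axis, where it goes from 21.6 with vehicle to 3.62 with forskolin.

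As a share of the collagen pool per kb, basement membrane chains held 36.1% ± 0.709 with vehicle and 39.5% ± 0.879 with forskolin, and fibrillar chains 47.9% ± 0.109 and 46.4% ± 0.759 (SD, n = 3). The 5 most abundant chains with vehicle were Col4a1 (19.0% of the pool), Col4a2 (15.5%), Col1a1 (14.4%), Col5a2 (11.2%) and Col3a1 (10.6%), and together they held 70.6%. With forskolin the same 5 chains led and held 74.6%, with Col3a1 (11.6%) above Col5a2 (9.99%). Col12a1 went from 5.98% to 3.38% of the pool and Col1a2 from 5.05% to 3.76%. Col8a1 went from rank 13 to rank 17 of the 44 chains, and Col18a1 from rank 18 to rank 16.

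Chains that share a trimer, a fibril or a collagen type were compared as ratios within each library, which library scaling cannot change. There were 13 such pairs, and the exact two-sided permutation test over 6 libraries cannot give a p below 0.1. That smallest value was reached by 11 pairs (p = 0.1, exact permutation test, 0.118 adjusted over the 13 pairs), so none could pass a threshold of 0.05. Several pairs have a chain in common, and the share of other gene pairs that separate was not computed. Single genes separated the groups in 57.3% of all genes tested. Col1a1 per Col1a2, per kb, was 4.06, 3.73 and 3.62 with forskolin and 3.05, 2.68 and 2.81 with vehicle. The ratio was higher in every forskolin library, by 1.34-fold on average. The common type I trimer takes the alpha 1 and alpha 2 chains in a fixed ratio. Col3a1 per Col1a1 was 0.752, 0.828 and 0.863 with forskolin and 0.730, 0.750 and 0.744 with vehicle.

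Within type V, Col5a2 per Col5a1 was 1.57 with forskolin and 1.76 with vehicle (geometric means over 3 libraries), and Col5a3 per Col5a1 was 0.0118 and 0.00570, a change of 2.07-fold. Col11a1 per Col5a1 changed by 1.40-fold. Within type VI the ratio of Col6a3 to Col6a1 was 0.278, 0.257 and 0.229 with forskolin and 0.367, 0.407 and 0.416 with vehicle, while Col6a1 per Col6a2 was 1.30 and 1.31 (p = 0.9, exact permutation test). Col5a1 per Col1a1 was 0.445 and 0.442 (p = 0.7, exact permutation test).

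Within type IV, Col4a1 per Col4a2 was 1.27, 1.27 and 1.29 with forskolin and 1.24, 1.21 and 1.23 with vehicle, a change of 1.04-fold that separated the groups. Col4a5 per Col4a1, which compares a chain of the rarer trimers with one of the common trimer, was 0.0369 and 0.0844, a change of 0.438-fold. Ratios with a chain of few counts are less precise. Col8a1 per Col8a2 was 37.3 and 231 (geometric means), on 13.5 forskolin counts of Col8a2. Col4a5 per Col4a6 was 519 and 220, on 4.5 forskolin counts of Col4a6. Col4a3 per Col4a4 was 2.17 and 1.35, on 5 forskolin counts of Col4a4.

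**Figure D4:**
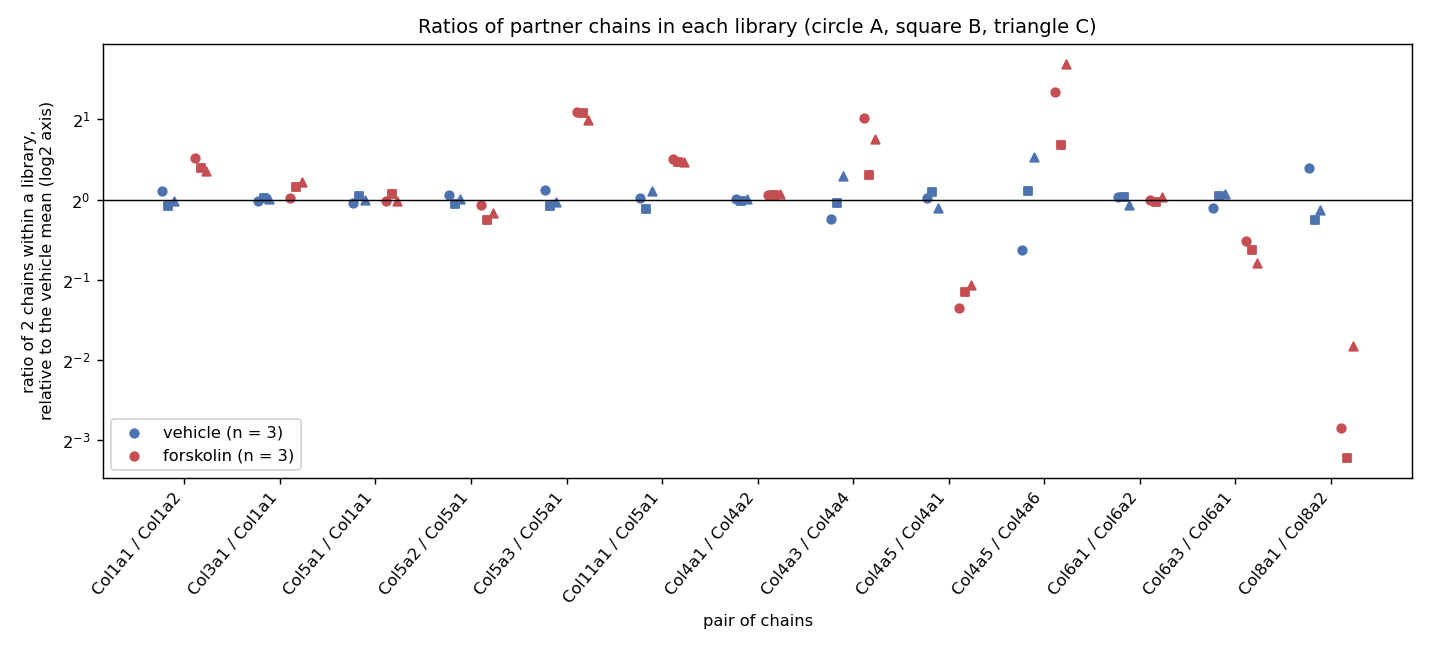
Ratio of 2 collagen chains within each library, per kb of exon and relative to the mean of the vehicle libraries, on a log2 axis (blue vehicle, red forskolin, 3 libraries each). The groups separate for 11 of 13 pairs, and overlap for Col5a1 to Col1a1 and Col6a1 to Col6a2. Several pairs have a chain in common, and the share of other gene pairs that separate was not computed.

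Several collagen genes lie side by side. Col4a1 and Col4a2 are transcribed head to head and overlap by 22 bases at their starts, and their log2 fold changes were -0.06 and -0.12. Col4a5 and Col4a6 are also head to head, 1342 bases apart, as are Col4a3 and Col4a4, 71 bases apart. In these 3 pairs both partners had lower values with forskolin, though Col4a1 did not pass and Col4a3, Col4a4 and Col4a6 were below the filter. Col3a1 and Col5a2 lie tail to tail, 24.6 kb apart, and fell by 0.13 and 0.41. Col6a1 and Col6a2 lie on the same strand, 85.4 kb apart, with log2 fold changes of 0.09 and 0.09, and Col18a1, 326 kb from Col6a1, had 1.28.

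The 50-base stretches of each member's annotated transcripts were looked up in all other genes, and at least 95.1% were found in no other gene for each of the 44 chains. In the vehicle libraries 8 chains had over 1 count per base of exon, from 1.27 for Col1a2 to 4.75 for Col4a1. They were Col1a1, Col1a2, Col3a1, Col4a1, Col4a2, Col5a1, Col5a2 and Col12a1. When rows averaging over 1 count per base across all 6 libraries were left out of the scaling, only Col4a2 of the 15 called chains lost its call. Col1a2, at 0.699 with forskolin, was not among the rows left out.

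Genes that make, process, bind and remove collagen were read from the same fit. Counts in each list are to be read beside 25.1% lower and 24.8% higher over all genes tested. Of the enzymes that hydroxylate or glycosylate collagen chains, 7 of 15 fell and 0 rose (median log2 fold change -0.09). P3h2, a prolyl 3-hydroxylase that acts on type IV collagen, went from 93.0 ± 1.61 to 38.1 ± 1.93 CPM (fell by 1.29, adjusted p = 2.05e-12). The lysyl hydroxylase gene Plod2 went from 239 to 197 CPM and the prolyl 4-hydroxylase gene P4ha1 from 408 to 334 CPM. Among chaperones and export factors 4 of 14 fell and 2 rose. Fkbp10, a prolyl isomerase of collagen folding, went from 319 to 256 CPM and Sec24d, a coat protein gene of collagen export vesicles, from 339 to 290 CPM. Mia2, an export receptor gene, rose from 105 to 128 CPM.

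Procollagen proteinases and their enhancers had 4 of 8 tested genes lower and 2 higher. The N-proteinase genes were split, Adamts14 going from 101 to 64.2 CPM and Adamts2 from 179 to 250 CPM, and the enhancer gene Pcolce went from 206 to 153 CPM. Crosslinking enzymes had 5 of 7 genes lower and 0 higher (median -0.36). The lysyl oxidase genes Lox and Loxl4 fell by 1.09 and 1.02, and the transglutaminase gene Tgm2 by 0.36. Of the genes listed for collagen degradation 6 of 8 tested fell and 1 rose (median -0.35). The collagenase gene Mmp13 fell by 3.44, the matrix metalloproteinase gene Mmp1b by 2.04 and the membrane-bound Mmp14 by 0.48.

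Collagen receptors and uptake genes had 3 of 9 tested genes lower and 1 higher. The receptor kinase gene Ddr2 rose from 231 ± 12.1 to 428 ± 5.88 CPM (log2 fold change 0.89, adjusted p = 9.41e-12), and its relative Ddr1 went from 214 to 160 CPM. Mrc2, the endocytic collagen receptor gene, went from 93.1 to 52.2 CPM. Among proteoglycans and glycoproteins that bind collagen 6 of 13 fell and 3 rose. Prelp went from 430 ± 42.0 to 159 ± 45.8 CPM and lumican (Lum) from 150 to 94.2 CPM, while tenascin X (Tnxb) rose from 168 to 375 CPM. Of other proteins with a collagen-like helix or collagen repeats 5 of 9 fell and 2 rose, with Ccbe1 (fell by 1.15), C1qtnf2 (1.08) and C1qtnf1 (0.97) having the smallest adjusted p.

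**Figure D5:**
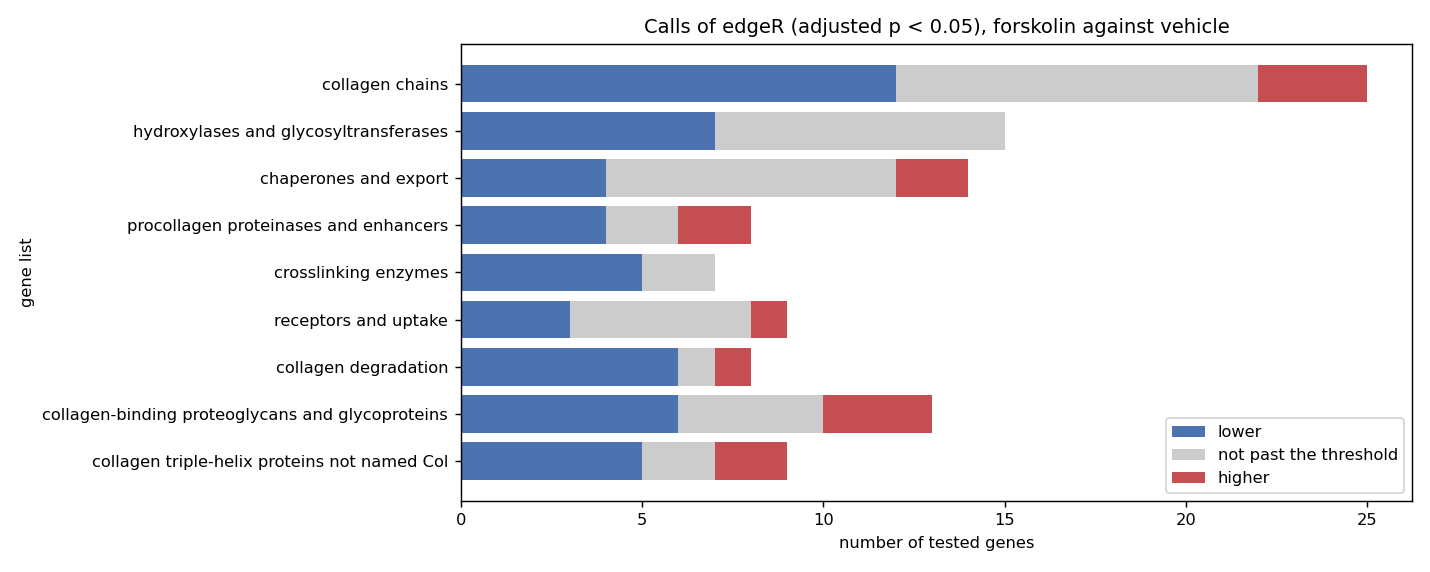
Number of tested genes called lower, called higher or not past the threshold among the collagen chains and the 8 lists of genes that act on or resemble collagen. Crosslinking enzymes and hydroxylases have 0 genes called higher. Over all genes tested, 25.1% were lower and 24.8% higher.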

How the data were processed

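The table deposited by the authors holds estimated counts (expected counts), not normalized, over the exons of 1 RefSeq transcript per gene. STAR, HOMER and mm10 are named in the submitters' processing notes, without version or setting. The deposited counts are multiples of 0.5, 31.8% of them not whole, for a reason that is not stated. They were treated as estimated counts (expected counts) and rounded to whole numbers for the tests. The collagen members, classes, chain pairs and companion lists were chosen with earlier results of these data known. The filter on low counts was filterByExpr with a minimum count of 10 and a minimum total of 15, and 13357 genes passed. Libraries were scaled by TMM and compared with edgeR 4.0.16 in R 4.3.3 (quasi-likelihood test, group as the only term, two-sided, Benjamini-Hochberg over all genes). The fit was tested on simulated data. CPM was computed from the deposited counts on TMM-scaled library sizes, and CPM per kb with the deposited exon length. Standard errors come from the F statistic and 95% intervals of folds from its degrees of freedom. Intervals of pooled counts are exact binomial (Clopper-Pearson) ones and, like floors of 3 counts, cover counting error only. For the ratios and intervals of pooled counts, sums were rounded to whole numbers, those midway going to the nearest even number. Ratios of chains used a pseudocount of 0.5 count and an exact permutation test (scipy 1.17.1). Coordinates are the table's, on mm10. They count from 1, as 24 of the 44 chains had a start identical to RefSeq's and 0 a start lower by 1. Alternatives were library size as the only scaling or as a covariate, DESeq2 1.42.0, no filter, no rounding, TMM without collagen or dense rows, the replicate letter as a block and each library left out. Every collagen chain is accounted for. Values per library are given for chains past the threshold or averaging 10 CPM or more, and at most 3 genes of each companion list are named, those with the smallest adjusted p. Any other value was chosen after it was seen. No pair of libraries agreed within sampling noise (chi-square per degree of freedom 1.68 to 4.71 within groups).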

Additional observations from a re-analysis of the deposited data

How the results depend on the processing

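Of the 15 chains past the threshold, 12 kept their direction and their call under all 14 alternatives of the fit, 9 lower and 3 higher. Col3a1, Col4a2 and Col16a1 lost theirs under some, with values in the text. With each library left out in turn, 10 to 13 chains were lower and 3 to 5 higher, of 25 to 27 tested. Col4a6 was among those lower without any 1 of the forskolin libraries and without vehicle C. In these settings it passed the filter on low counts only through its vehicle libraries, where its counts were higher, so its call there adds no support. Without forskolin A 5 were higher, and with library size as the only scaling 5 were also higher, Col6a1 and Col6a2 being added. Over the whole table, 3988 genes were higher and 2874 lower with library size as the only scaling. With library size as a covariate, 1998 genes in place of 3319 were higher and 2299 in place of 3349 lower. Of the companion genes, 7 in place of 11 were higher and 39 in place of 40 lower with the covariate. Because every forskolin library was smaller than every vehicle library, this setting cannot fully separate library size from treatment. The replicate letter as a block gave 3 chains higher and 12 lower, with all 15 calls shared, and 3303 genes higher and 3372 lower, and it changed no call of a chain. Deviations of libraries with the same letter were correlated at 0.0291, 0.0203 and 0.0377 across genes, so the letters were not taken to pair them, although every library correlated best with its own letter. Of chains that did not pass, Col7a1 turned in direction with no filter (-0.0013), library size as a covariate (-0.15), the block (-0.0081), without forskolin A (-0.20), vehicle A (-0.034) or vehicle C (-0.039), and ranged up to 0.118 with 1 library left out. Col14a1 turned with the covariate (0.063) and without vehicle B (0.0049), and Col23a1 without forskolin B (-0.081). With 1 library left out Col23a1 ranged up to 0.451, without forskolin A, and over all 14 alternatives up to 0.906. The summed ratio of forskolin to vehicle for FACIT chains was 0.568 by CPM without length, in place of 0.625, and for beaded filament chains 0.915 in place of 0.994, since Col12a1 and Col6a3 are long. For beaded filament chains it ranged from 0.963 to 1.03 with 1 library left out, being 1.01 without forskolin A and 1.03 without vehicle B. The log2 difference of Col5a1 per Col1a1 ranged from -0.022 to 0.031 and was -0.012 without vehicle A, and that of Col6a1 per Col6a2 ranged from -0.036 to 0.017 and was 0.014 without forskolin B and 0.013 without vehicle A. The cause of these changes was not tested. Chains with a few counts per library could show only large differences at this depth.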
